A study of Mus musculus with 20 samples.

Results

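Collagen chain genes encode the alpha chains that fold in threes into the triple helices of the extracellular matrix. They were taken here as every gene of the deposited table whose symbol has the form Col, a number, a and a number, with at least 0.5 CPM in at least 5 of the 20 libraries. CPM is a gene's estimated count scaled to a common library total. The rule kept 37 of 43 genes with such a symbol, out of 21844 genes in the table. RNA was sequenced from hindlimb muscle of mice, 5 libraries in each of 4 groups. All groups, the controls included, carried the genotype written Cre+:iMSBmal1 fl/fl, in which a Cre recombinase that is inducible in skeletal muscle can delete a floxed Bmal1 gene. BMAL1 is the transcription factor at the positive arm of the circadian clock. The vehicle sedentary and vehicle trained groups received vehicle, and the groups labelled iMSBmal1KO, called knockout sedentary and knockout trained here, are given as muscle-specific knockouts. The trained groups ran on a treadmill daily for 6 weeks. The age of the mice, the agent that switched on Cre and the promoter that drove it are not given in the sources used here. The labels name the gastrocnemius in one place and the tibialis anterior in another, and they give collection 48 hours post in one field and 47 hours after the last bout in another.

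In skeletal muscle the fibrillar collagens I, III and V form the tensile fibres of the sheaths around fascicles and single muscle fibres, and fibroblasts make most of them. Collagen IV forms the flat network of the basement membrane that wraps each muscle fibre and capillary, and collagen VI forms beaded microfilaments that link that membrane to the fibrils. Collagen chains are hydroxylated and folded in the endoplasmic reticulum, secreted as procollagen, trimmed outside the cell and crosslinked by lysyl oxidases. In bulk muscle RNA, fewer cells of a type and less RNA per cell cannot be told apart.

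Total estimated counts per library ran from 10610333 to 19153527, of which the 37 collagen chain genes took between 0.0393% and 0.136%. The markers of the labelled tissue were abundant: the summed level of 6 skeletal muscle fibre genes ran from 46580 to 74750 CPM over all samples. Libraries 1 and 4 of the knockout trained group, and libraries 3 and 5, differed far less than any other pair of libraries and were each counted as 1 sample, so this group has n = 3 and 18 samples were compared. Nothing in the labels says that the libraries came from separate animals, so the p-values measure the spread between these samples. Vehicle-trained library 2 stood apart, with 3767 of the 15924 tested genes more than 2-fold from the rest of its group against at most 479 for any other sample. It was kept, and each result that rests on it is also given without it. The targeted gene, listed as Arntl, showed no loss under the knockout label. It stood at 6.79 ± 0.890 CPM (SD, n = 5) in vehicle sedentary samples, 13.2 ± 3.28 (SD, n = 5) in knockout sedentary samples and 10.9 ± 4.45 (SD, n = 3) in knockout trained samples. In the vehicle trained group it was at 132.3 CPM in library 2 and at or below 6.676 CPM in the other 4. Apart from that library, Arntl was higher under the knockout label without overlap. It ran from 5.682 to 7.93 CPM in vehicle sedentary and from 10.96 to 18.87 CPM in knockout sedentary samples. In knockout trained samples it ran from 8.043 to 16.07 CPM. A count over the whole gene cannot show the loss of single exons. Directions below are therefore those of the libraries labelled knockout.

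Col4a1 and Col4a2, the main chains of collagen IV, are transcribed away from each other from 1 shared stretch of mouse chromosome 8. In the RefSeq promoter table (build GRCm38.p6), 30 of the 37 members had a window of 250 bases before to 50 bases after the start of transcription. The Col4a1 window on the minus strand and the Col4a2 window on the plus strand share 78 bases, chr8:11312777-11312854. The shared bases are printed because both start sites lie in them. They are written 5′ to 3′ on the plus strand, and the capitals mark the 22 bases from the Col4a2 start at 11312805 to the Col4a1 start at 11312826.
Col4a1 and Col4a2: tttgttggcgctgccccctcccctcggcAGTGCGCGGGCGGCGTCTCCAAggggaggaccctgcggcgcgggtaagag
The capitals also hold the GC box letters GGGCGG once. On both strands, GGGCGG occurred in the windows of 18 of 30 members (60%) and of 38.2% of all 27025 genes with a window. CCAAT occurred in 11 of 30 members (36.67%) and in 41.06% of all genes. The E-box letters CACGTG, the form that BMAL1 and its partner CLOCK bind, occurred in 0 of 30 member windows and in 8.093% of genes, which says only that these letters are not in these 300 bases. Col4a6 and Col4a5 lie head to head on chromosome X with start sites 1343 bases apart, and their windows do not meet. The exons of Col4a1 and Col4a2 overlap by 22 bases on opposite strands (0.295% and 0.332% of their exonic length in the GENCODE M21 annotation), so few reads of either could be counted for the other.

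The most abundant collagen chain RNAs were those of collagens I, III, VI and IV. Levels are compared between genes as CPM per kilobase of the longest protein-coding transcript in GENCODE M21, averaged over the 18 samples. Col1a2, a chain of collagen I, stood at 28.64 and Col3a1, the single chain of collagen III, at 24.29. They were followed by Col6a1 at 17.04 and Col6a2 at 14.72, and by the basement membrane chains Col4a1 at 13.74 and Col4a2 at 10.83. Col1a1 stood at 9.622, Col15a1, a basement membrane collagen known to be needed for muscle and capillary integrity, at 5.77, and Col6a3 at 5.64. The remaining 28 members lay between 0.07503, in Col17a1, and 3.727, in Col5a2. The other collagen IV chains were low: Col4a5 stood at 0.9218, Col4a4 at 0.4818, Col4a3 at 0.4023 and Col4a6 at 0.126.

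By class the 37 members comprised 10 fibrillar chains, 7 FACIT chains (which attach to the surface of fibrils), 6 chains of the basement membrane network, 4 of beaded filaments, 3 transmembrane chains, 2 of hexagonal networks, 2 multiplexins (Col15a1 and Col18a1), the anchoring fibril chain Col7a1 and 2 others. At the edge of the rule, Col17a1 reached 0.5 CPM in 5 libraries, Col26a1 in 7 and Col28a1 in 9. Just outside it, Col6a5 reached that level in 3 libraries, Col25a1 in 2, Col10a1 and Col9a2 in 1 each, and Col2a1 and Col9a3 in 0. Members of low count are imprecise: Col4a6 had 4 to 24 estimated counts per library (median 11), Col13a1 2 to 22 and Col26a1 0 to 14, against 768 to 2210 for Col4a1.

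Vehicle-trained library 2 was low in most collagen chains, with Col4a1, Col4a2 and Col19a1 above the rest of its group. Of the 37 members, 29 lay below all 4 other vehicle trained libraries, 3 above them and 5 within their range. Of all 15924 tested genes, 44.3% lay below, 31.5% above and 24.2% within. Col3a1 was at 16.51 CPM in this library against 106.6 to 232.7 in the other 4, 10.09-fold below their mean. Col6a6, a long collagen VI chain, was 10.99-fold below, and Col24a1, a minor fibrillar chain, 13-fold below. Of the minor collagen IV chains, Col4a5, Col4a4 and Col4a6 also lay below and Col4a3 within, with Col4a5 at 0.9248 CPM against 6.276 to 8.558. Col4a1 went the other way at 146.0 CPM against 75.68 to 110.4, and so did Col4a2 at 83.37 CPM against 60.61 to 73.9 and Col19a1 at 3.501 against 0.5034 to 1.917. Lox, the lysyl oxidase that crosslinks collagen, was at 229.1 CPM there and at or below 23.88 in the other 4. Chains that assemble together were also out of proportion: the log2 ratio of Col5a1 to Col5a2 was -1.392 against 0.2065 to 0.3983, and that of Col6a3 to Col6a1 was -1.069 against -0.3406 to -0.143.

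**Figure D1:**
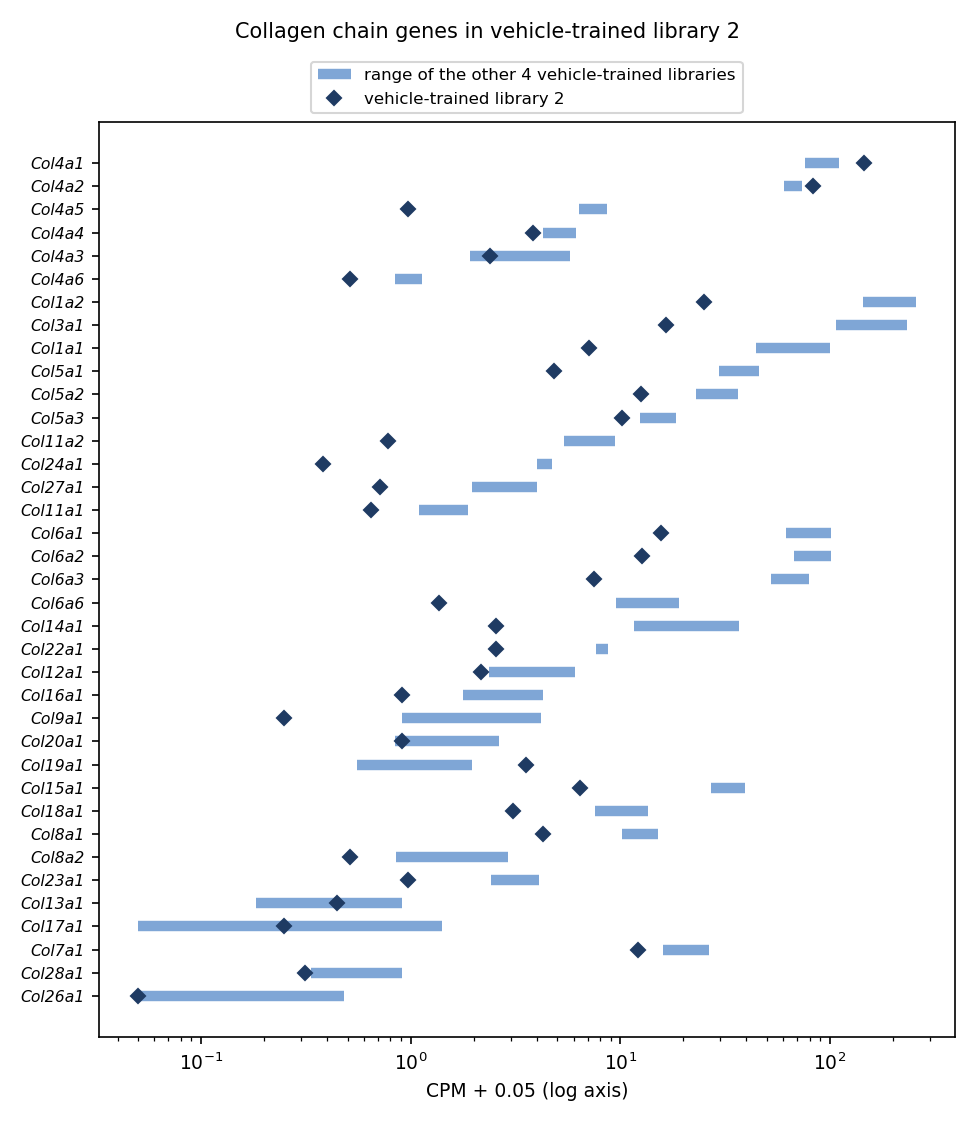
CPM of each of the 37 collagen chain genes in vehicle-trained library 2 (diamonds) and the range over the other 4 vehicle trained libraries (bars), on a log axis with 0.05 CPM added. In this library 29 genes lie below the bars, while Col4a1, Col4a2 and Col19a1 lie above them.

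The comparison of knockout sedentary with vehicle sedentary samples asks what the knockout changes without training. Col4a2, Col4a6 and Col5a3 were higher in the libraries labelled knockout, and the calls of Col4a2 and Col4a6, chains of the basement membrane network, stood in all 28 alternatives. The other 4 network chains were not called with all samples. Summed over the 37 members, the level was 761.2 ± 176.3 CPM in vehicle sedentary samples (SD, n = 5) and 1136 ± 164.4 CPM in knockout sedentary samples (SD, n = 5). The ranges of the sums, 556.5 to 979.3 and 931.4 to 1360, overlapped. In edgeR's quasi-likelihood test with Benjamini-Hochberg adjustment over all tested genes, 3 of 37 members had an adjusted p under 0.05, all higher, where 2.11% of all tested genes were called, 0.929% higher and 1.18% lower. The members' log2 changes were above 0 in 31 of 37, with a median of 0.43 against 0.01 for all tested genes. At an unadjusted p under 0.05 there were 10 members, 8 of them higher, beside 9.44% of all tested genes. In the fit that left out vehicle-trained library 2, whose spread enters the shared estimate, 6 members were called, 5 higher and 1 lower, where 6.31% of all tested genes were called (2.77% higher, 3.54% lower). The CPM ranges of the groups did not overlap in 5 members, 4 higher (Col4a1, Col4a2, Col4a6 and Col5a3) and 1 lower (Col24a1), where 5.29% of all tested genes separated as higher and 3.51% as lower.

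Col4a2, the partner chain of Col4a1 in the common collagen IV trimer, rose. It was at 53.14, 64.72, 53.72, 59.87 and 43.62 CPM in the vehicle sedentary libraries and at 85.82, 92.96, 86.75, 87 and 82.44 CPM in the knockout sedentary ones. The groups did not overlap, with a gap between 64.72 and 82.44 CPM. The log2 change was 0.61 (SE 0.115, edgeR adjusted p = 0.00506), and the call stood in all 28 alternatives. Col4a1 was at 59.4, 83.95, 69.54, 77.16 and 53.46 CPM in vehicle sedentary libraries and at 104, 113.6, 116.8, 112.6 and 98.09 CPM in knockout sedentary ones. All 5 knockout values again lay above all 5 vehicle values. Its log2 change was 0.62 (SE 0.160), with an edgeR adjusted p = 0.0544 that fell just outside the threshold. It was called when vehicle-trained library 2 was left out (log2 change 0.62, edgeR adjusted p = 0.00137), as it was in 10 of 28 alternatives. The log2 ratio of Col4a1 to Col4a2 was 0.31 ± 0.0919 (SD, n = 5) in vehicle sedentary and 0.32 ± 0.0745 (SD, n = 5) in knockout sedentary samples, a difference smaller than the spread.

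Col4a6, an X-linked chain of the less common collagen IV trimer, rose from low levels. It was at 0.5414, 0.3991, 0.2088, 0.4174 and 0.4887 CPM in vehicle sedentary libraries and at 1.107, 1.595, 1.566, 0.7822 and 0.9483 CPM in knockout sedentary ones. The groups did not overlap. The log2 change was 1.49 (SE 0.312, edgeR adjusted p = 0.0118), and the call stood in all 28 alternatives. Its neighbour Col4a5, which joins it in that trimer, was at 5.46 ± 1.12 CPM (SD, n = 5) and 6.66 ± 1.71 CPM (SD, n = 5), with overlapping ranges and a log2 change of 0.23. Col4a3 and Col4a4, the chains known from kidney basement membrane, were at 3.54 ± 0.794 and 5.00 ± 1.28 CPM without the knockout label and at 4.17 ± 0.263 and 5.47 ± 1.52 CPM with it (SD, n = 5 each). The 6 network chains together summed to 109.9 to 160.5 CPM in vehicle sedentary samples and to 193.6 to 226.6 CPM in knockout sedentary samples. Most of that sum was Col4a1 and Col4a2. Their means were 68.7 and 55.01 CPM of a mean sum of 138.1 in vehicle sedentary samples. In knockout sedentary samples they were 109 and 86.99 CPM of 213.5. Col4a3, Col4a4 and Col4a5 overlapped between the groups.

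**Figure D2:**
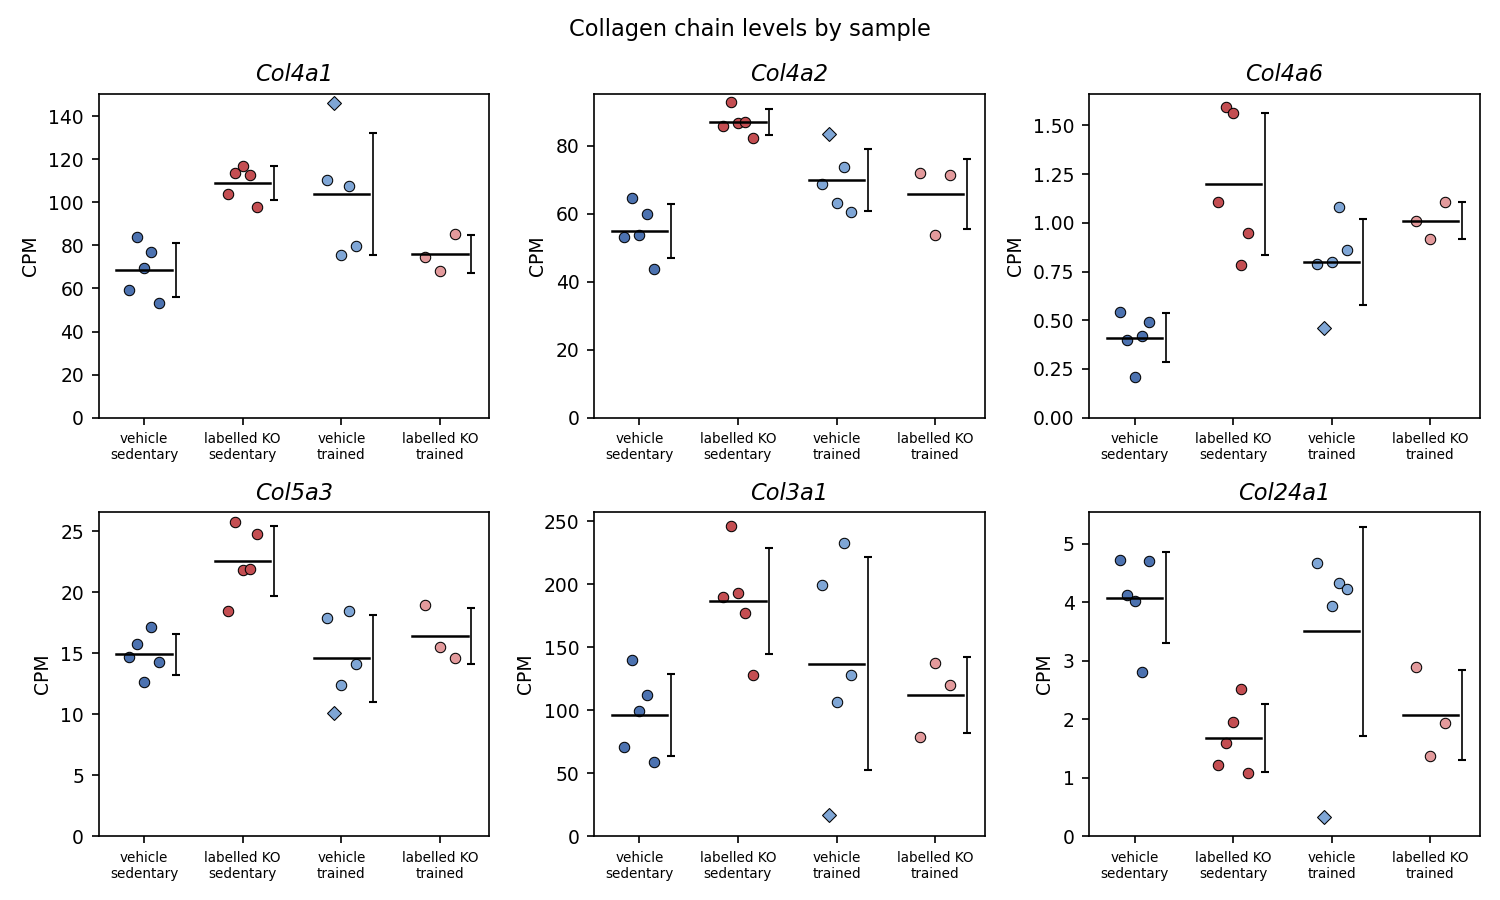
CPM of 6 collagen chain genes in each sample, with the group mean (line) and SD (bar), and vehicle-trained library 2 drawn as a diamond. All knockout sedentary samples of Col4a1, Col4a2, Col4a6 and Col5a3 lie above all vehicle sedentary ones, and all those of Col24a1 lie below.

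Among the fibrillar chains, Col5a3 rose and Col24a1 was lower, and the abundant chains were higher on average with wide spreads. Col5a3 encodes the least studied chain of collagen V, which regulates fibril diameter. It was at 14.7, 15.76, 12.63, 17.11 and 14.23 CPM in vehicle sedentary libraries and at 18.45, 25.78, 21.84, 21.9 and 24.79 CPM in knockout sedentary ones, without overlap. Its log2 change was 0.55 (SE 0.136, edgeR adjusted p = 0.0412), a call that was lost in 16 of 28 alternatives, with adjusted p from 0.00105 to 0.132 over all of them. Col24a1 was at 4.718, 4.124, 4.02, 2.802 and 4.704 CPM in vehicle sedentary libraries and at 1.212, 1.595, 1.957, 2.52 and 1.084 CPM in knockout sedentary ones. The groups did not overlap. Its log2 change was -1.36 (SE 0.422, edgeR adjusted p = 0.136), and without vehicle-trained library 2 it was called (-1.37, SE 0.237, edgeR adjusted p = 0.000804).

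Col3a1 was at 70.54, 139.9, 99.62, 111.7 and 58.77 CPM in vehicle sedentary libraries and at 189.6, 245.8, 192.8, 177.2 and 128.2 CPM in knockout sedentary ones. Only knockout sedentary library 5 reached into the vehicle range. The log2 change was 0.91 (SE 0.412, edgeR adjusted p = 0.484), and without vehicle-trained library 2 it was called (0.91, SE 0.228, edgeR adjusted p = 0.0184). Col1a1 was at 29.93, 70.04, 39.63, 48.12 and 29.39 CPM against 62.15, 84.46, 77.9, 75.79 and 55.61 CPM. Its ranges overlapped through vehicle sedentary library 2, and the log2 change of 0.66 (SE 0.408, edgeR adjusted p = 0.746) was not called. Col1a2, which joins 2 chains of Col1a1 in collagen I, was at 94.51, 153.7, 116.3, 157.5 and 84.8 CPM against 165.5, 223.9, 205.3, 186.6 and 143.9 CPM. The ranges overlapped between 143.9 and 157.5 CPM, and the log2 change was 0.56 (SE 0.363, edgeR adjusted p = 0.781). The 10 fibrillar chains summed to 338.2 ± 93.53 CPM in vehicle sedentary samples (SD, n = 5) and 542.0 ± 92.98 CPM in knockout sedentary samples (SD, n = 5).

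The major chains of collagen V were less separated than Col5a3. Col5a1 was at 19.57, 36.65, 26.21, 31.84 and 17.17 CPM in vehicle sedentary libraries and at 31.95, 43.19, 31.16, 31.46 and 27.91 CPM in knockout sedentary ones. Its log2 change was 0.29 (SE 0.344, edgeR adjusted p = 0.974). Col5a2 was at 13.23, 26.87, 22.14, 26.65 and 14.72 CPM against 32.05, 37.81, 33.67, 25.81 and 26.08 CPM, with a log2 change of 0.54 (SE 0.226, edgeR adjusted p = 0.408). Both pairs of ranges overlapped.

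The beaded filament chains of collagen VI, whose loss is known to cause a congenital muscular dystrophy, were also higher on average without being called. Col6a1 was at 48.42, 84.21, 60.82, 75.49 and 45.64 CPM in vehicle sedentary libraries and at 74.22, 104.9, 98.65, 75.53 and 68.48 CPM in knockout sedentary ones. Col6a2 was at 47.95, 84.88, 51.9, 71.97 and 38.98 CPM against 71.8, 111.2, 100.5, 83.35 and 68.69 CPM. Col6a3 was at 37.67, 60.8, 51.58, 60.16 and 32.26 CPM against 59.73, 93.69, 80.72, 65.36 and 66.11 CPM. The ranges overlapped in all 3 genes, through the upper vehicle sedentary libraries. Their log2 changes were 0.37 for Col6a1, 0.51 for Col6a2 and 0.55 for Col6a3, with edgeR adjusted p of 0.897, 0.798 and 0.811.

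Of the members outside these classes, Col7a1, the anchoring fibril chain, was among the few that were lower, with 23.4 ± 6.87 CPM in the vehicle group and 15.6 ± 3.19 CPM in the knockout group (SD, n = 5 each). Its log2 change was -0.64 (SE 0.249, edgeR adjusted p = 0.315). Col13a1, a transmembrane chain found at the neuromuscular junction, was at 0.496 ± 0.327 and 1.07 ± 0.268 CPM (SD, n = 5 each), with a log2 change of 1.06 (SE 0.435, edgeR adjusted p = 0.382). Log2 changes were 0.63 for Col12a1, a FACIT chain, 0.51 for Col15a1, 0.43 for Col18a1, the precursor of endostatin, and 0.46 for Col8a1, a chain of vascular networks, and none of the 4 was called.

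**Figure D3:**
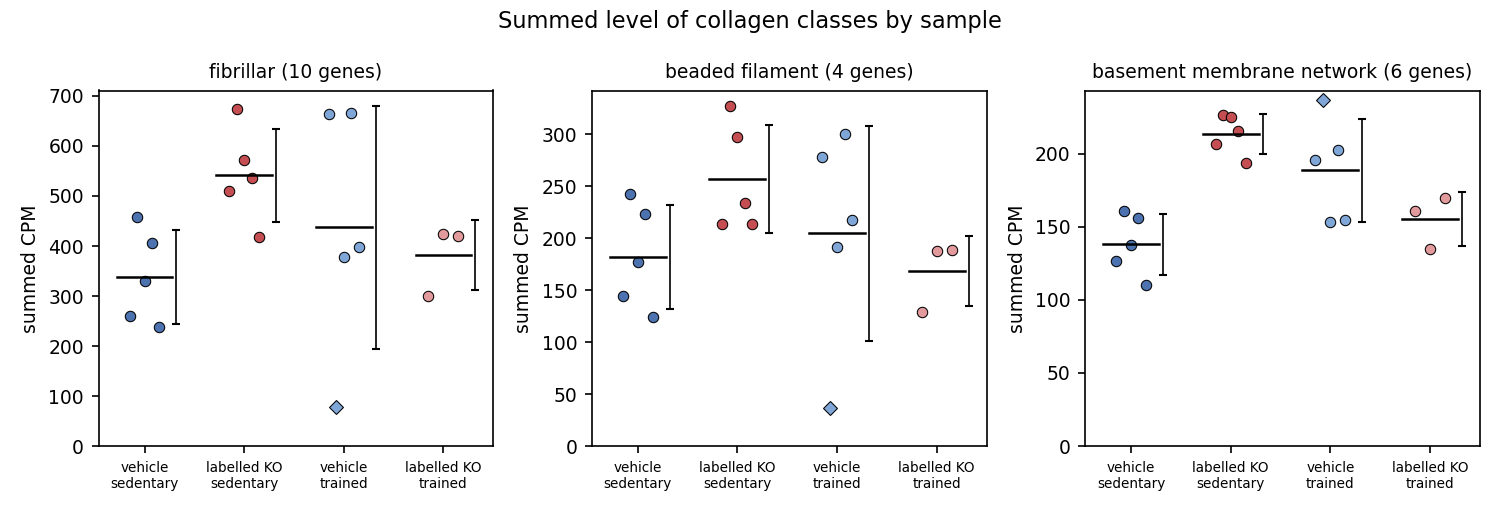
Summed CPM of the 10 fibrillar, 4 beaded filament and 6 basement membrane network chains in each sample, with group mean (line) and SD (bar), and vehicle-trained library 2 drawn as a diamond. The network sums of knockout sedentary samples (193.6 to 226.6) lie above those of vehicle sedentary samples (109.9 to 160.5). Most of each network sum is Col4a1 and Col4a2. Vehicle-trained library 2 is lowest in the fibrillar and beaded filament sums and highest in the network sum.

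Markers of other cells moved with this comparison to differing degrees, and their part in it was not tested. The summed level of 8 fibroblast markers overlapped, at 1804 to 3914 CPM in the vehicle group and 2268 to 4178 CPM in the knockout group. So did that of 6 endothelial markers, at 195.8 to 303.1 and 243.7 to 305.0 CPM, that of 7 tendon cell markers, at 44.54 to 82.94 and 72.66 to 110.9 CPM, and that of 5 pericyte and smooth muscle markers, at 424.2 to 526.8 and 524.6 to 665.0 CPM. The sum of 5 satellite cell markers did not overlap, at 65.49 to 78.03 against 105.2 to 131.2 CPM. Most of that sum was Sdc4, a cell-surface proteoglycan also made by other cells, at 44.8 ± 3.70 against 86.2 ± 6.20 CPM (SD, n = 5 each), while Pax7, the defining satellite cell factor, was at 5.36 ± 1.67 and 5.47 ± 0.896 CPM. The 6 Schwann cell markers (23.15 to 53.88 against 26.42 to 40.33 CPM), 5 adipocyte markers (198.0 to 358.2 against 257.3 to 328.7 CPM) and 6 macrophage markers (47.35 to 197.5 against 73.57 to 209.6 CPM) overlapped. No marker of these lists was at 0 in any of the 10 sedentary samples. Log2 changes were above 0 in all 8 fibroblast (median 0.17), all 6 macrophage (0.25) and all 5 pericyte and smooth muscle markers (0.22). They were above 0 in 4 of 6 endothelial, 4 of 7 tendon cell, 4 of 5 satellite cell, 2 of 6 Schwann cell and 1 of 5 adipocyte markers. None was called with all samples. Without vehicle-trained library 2, where 6.31% of all tested genes were called, 1 satellite cell marker was called higher.

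In trained muscle no collagen chain was called between knockout and vehicle samples. The summed level was 938.2 ± 376.9 CPM in vehicle trained samples (SD, n = 5) and 796.5 ± 98.63 CPM in knockout trained samples (SD, n = 3). Vehicle-trained library 2 summed to 392.8 CPM, and without it the vehicle trained sums ran from 832.4 to 1316 with a mean of 1075, against 684.2 to 869.1 in knockout trained samples. In edgeR's test 0 of 37 members were called, where 2.87% of all tested genes were, and 3 members had an unadjusted p under 0.05, beside 16.3% of all tested genes. DESeq2 and limma on both log scales also called 0, and limma with voom sample quality weights called 6. The share of all tested genes that voom called is not given here. The median log2 change of the members was -0.11 against -0.03 for all tested genes, and it lay above 0 (0.03 and 0.09) when limma was run on log2(CPM + 1) and log2(CPM + 0.1). When vehicle-trained library 2 was left out, 1 member was called, where 7.5% of all tested genes were, and 10 had an unadjusted p under 0.05, beside 21.1%.

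The member called without library 2 was Col24a1, which was lower. It was at 4.674, 0.3303, 3.938, 4.327 and 4.23 CPM in vehicle trained libraries and at 2.888, 1.376 and 1.939 CPM in knockout trained samples. Apart from vehicle-trained library 2 the groups did not overlap. With it the log2 change was -0.70 (SE 0.479, edgeR adjusted p = 0.493), and without it -0.98 (SE 0.275, edgeR adjusted p = 0.0351). With that library left out, Col24a1 was the one chain called lower under the knockout label in both sedentary and trained muscle.

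Col13a1 and Col26a1, both of low count, were the chains that were higher in all knockout trained samples than in all vehicle trained ones, where 3.79% of all tested genes separated in that direction. Col13a1 was at 0.9792, 1.147 and 1.196 CPM in knockout trained samples and at 0.1322 to 0.863 CPM, with a median of 0.3964, in vehicle trained libraries. Its log2 change was 1.34 (SE 0.483, edgeR adjusted p = 0.165). Col26a1 was at 0.5525, 1.07 and 0.4937 CPM against 0.2157, 0, 0.4307, 0 and 0.3305 CPM, with an edgeR adjusted p = 0.220.

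Apart from vehicle-trained library 2, 5 members lay lower in all knockout trained samples, Col5a1, Col5a2, Col6a2, Col6a3 and Col24a1, where 8.18% of all tested genes separated that way, and Col13a1 and Col26a1 lay higher, where 5.74% did. Col5a2 was at 33.94, 12.49, 25.6, 36.44 and 22.87 CPM in vehicle trained libraries and at 15.63, 20.11 and 18.33 CPM in knockout trained samples. Col5a1 was at 39.7, 4.756, 29.53, 45.83 and 30.14 CPM against 21.46, 25 and 24.73 CPM. In both genes the 12.49 and 4.756 CPM of library 2 were the lowest values of all. Neither was called: the edgeR adjusted p without that library was 0.0633 for Col5a2 and 0.112 for Col5a1. Col4a1 was at 110.4, 146, 75.68, 107.8 and 79.52 CPM in vehicle trained libraries and at 74.6, 68.04 and 85.55 CPM in knockout trained samples, and Col4a2 at 68.75, 83.37, 63.06, 73.9 and 60.61 CPM against 72.03, 53.9 and 71.5 CPM. Both overlapped. Col4a6 overlapped as well, at 0.7911, 0.4624, 0.7998, 1.082 and 0.8593 CPM against 1.008, 0.9174 and 1.107 CPM, and so did Col5a3, at 17.91, 10.11, 12.37, 18.45 and 14.08 CPM against 18.96, 15.52 and 14.61 CPM.

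Fibroblast markers summed to 2861 to 5379 CPM in vehicle trained and 1768 to 3347 CPM in knockout trained samples, and endothelial markers to 196.5 to 250.5 and 198.0 to 308.0 CPM. Tendon cell markers summed to 52.65 to 123.7 and 101.6 to 121.6 CPM, and pericyte and smooth muscle markers to 323.4 to 531.6 and 509.0 to 632.1 CPM. These ranges overlapped. Satellite cell markers summed to 85.25 to 104.9 CPM in knockout trained samples against 59.76 to 68.32 CPM in 4 vehicle trained libraries and 431.7 CPM in library 2. The tendon marker Chad and the adipocyte marker Lep were each at 0 in at least 1 vehicle trained library. Macrophage markers summed to 139.5 to 329.6 CPM in vehicle trained and 48.41 to 284.3 CPM in knockout trained samples. Log2 changes were above 0 in 0 of 8 fibroblast markers (median -0.58) and 0 of 6 macrophage markers (median -0.78), and none was called with all samples. Without library 2, where 7.5% of all tested genes were called, 1 fibroblast marker (Pi16) was called lower. In that fit 1 tendon cell marker and 1 satellite cell marker were called higher. The part of these cells in the collagen values was not tested.

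**Figure D4:**
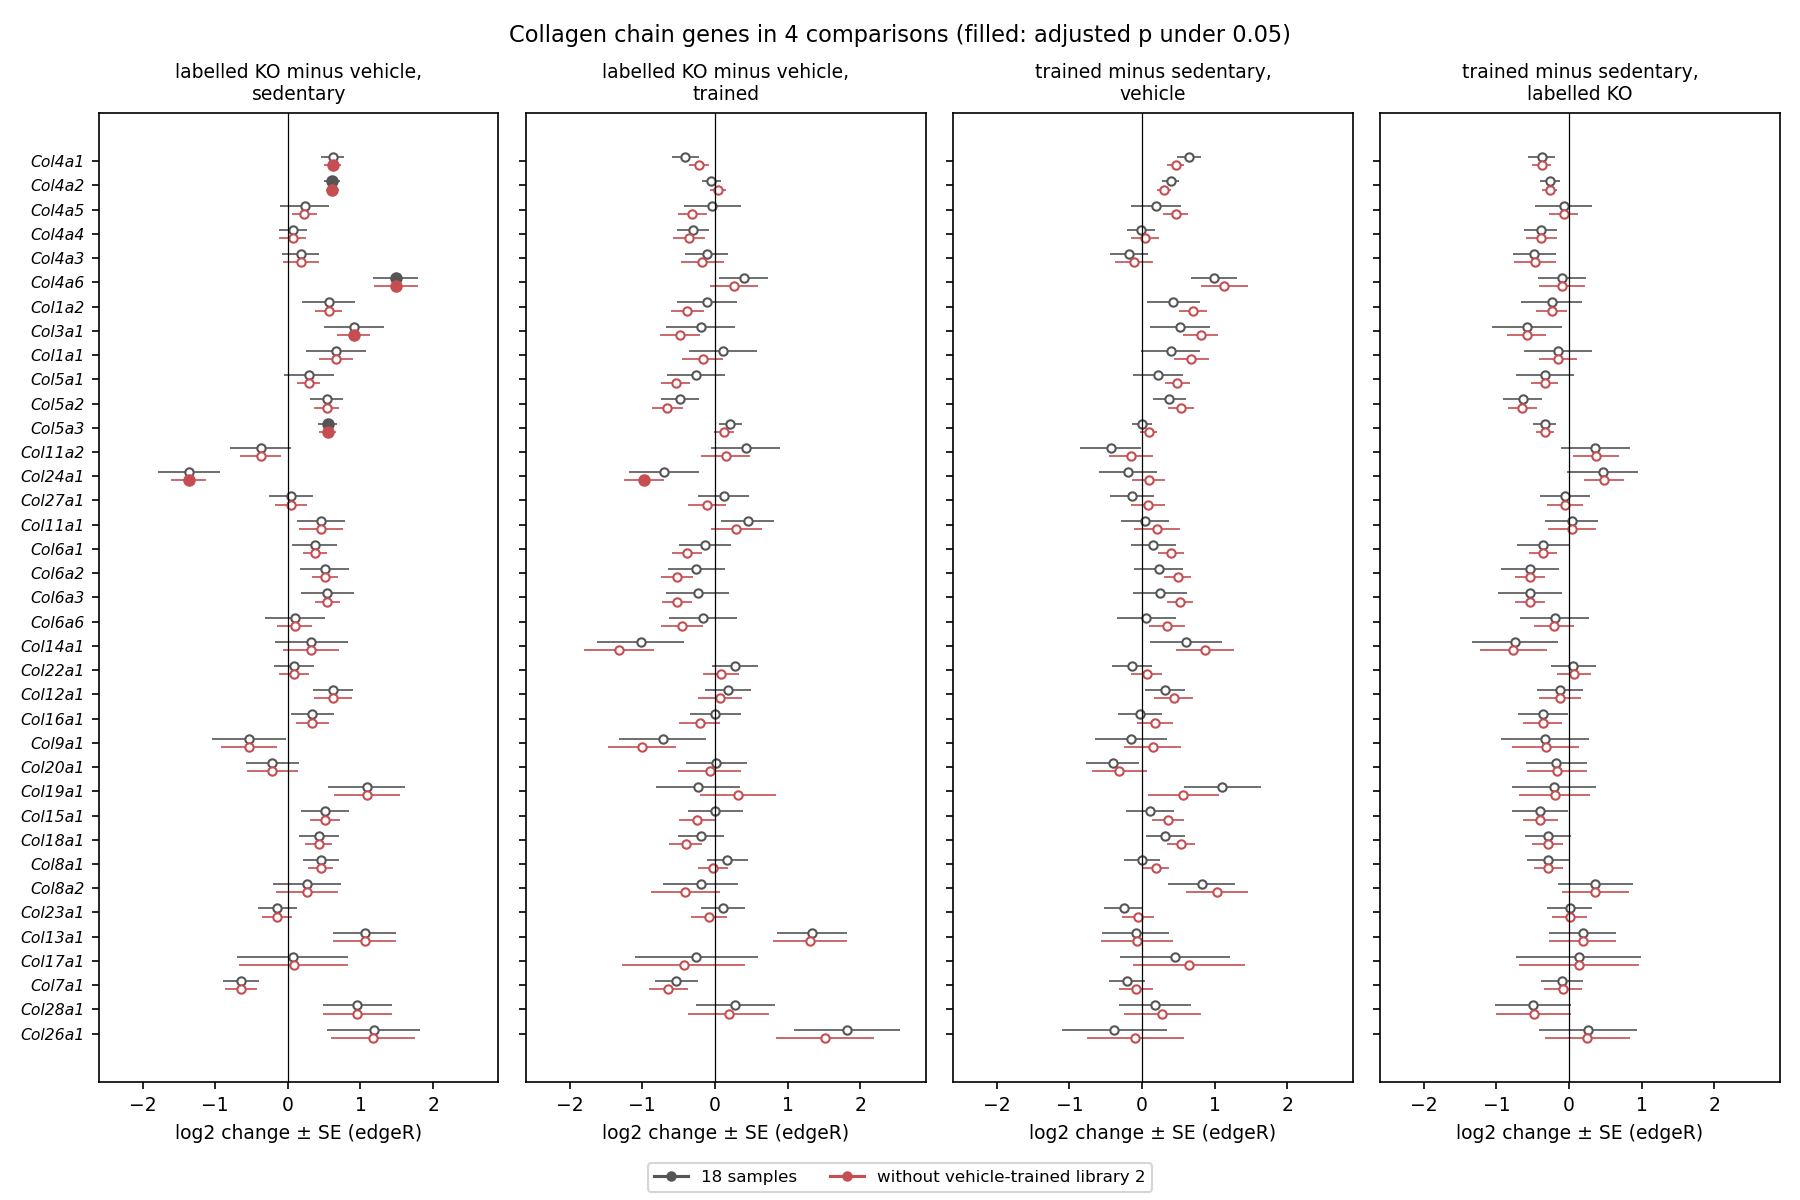
Log2 change with SE from edgeR's test for the 37 collagen chain genes in 4 comparisons, with all 18 samples (grey) and without vehicle-trained library 2 (red); filled points have an adjusted p under 0.05. Filled points appear for Col4a2, Col4a6 and Col5a3 in sedentary muscle with all samples, and in no training comparison.

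Training in vehicle muscle gave no called collagen chain. No tested gene at all was called (0.0%), and 0 of 37 members were, while 14.4% of all tested genes and 3 members had an unadjusted p under 0.05. DESeq2 and all 3 limma fits also called 0 members. Those 3 were the basement membrane chains Col4a1 (log2 change 0.65, SE 0.160, edgeR unadjusted p = 0.000759, adjusted p = 0.275), Col4a2 (0.40, SE 0.114, edgeR adjusted p = 0.275) and Col4a6 (1.00, SE 0.317, edgeR adjusted p = 0.275), all with values above 0. Without vehicle-trained library 2 their log2 changes were 0.46, 0.30 and 1.13. The knockout comparison in sedentary muscle uses the same vehicle sedentary samples as its baseline, so the 2 comparisons are not independent. With vehicle-trained library 2 left out, 15 members had an unadjusted p under 0.05, all higher, beside 12.5% of all tested genes, and still 0 were called. The members' median log2 change was 0.15 with all samples and 0.34 without that library, against 0.03 and -0.01 for all tested genes. It lay below 0 with limma on log2(CPM + 1) (-0.04) and log2(CPM + 0.1) (-0.08) when that library was kept, so no direction is given for the members together. Col4a6 was the one chain that separated without library 2, at 0.7911 to 1.082 CPM in vehicle trained against 0.2088 to 0.5414 CPM in vehicle sedentary samples, where 0.641% of all tested genes separated in that direction. In this comparison all 8 fibroblast markers (median log2 change 0.57), all 6 macrophage markers (1.08) and all 7 tendon cell markers (0.41, and 0.73 without library 2) had log2 changes above 0, and none was called. Their part in the collagen values was not tested.

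The other abundant chains showed wide overlap between trained and sedentary vehicle muscle. Col3a1 was at 199.5, 16.51, 106.6, 232.7 and 127.9 CPM in vehicle trained libraries, a span that holds all 5 sedentary values. Col1a1 was at 100.5, 7.068, 46.58, 83.29 and 44.22 CPM and Col1a2 at 256.9, 25.1, 145.1, 231.8 and 144.4 CPM. Vehicle-trained libraries 1 and 4 were the highest of their group in these 3 genes and library 2 the lowest. The same libraries were highest and lowest for collagen VI: Col6a1 was at 95, 15.66, 61.46, 100.7 and 70.73 CPM, Col6a2 at 90.33, 12.62, 68.23, 101 and 67.16 CPM, and Col6a3 at 78.68, 7.465, 52.48, 79.53 and 64.05 CPM. Log2 changes with and without library 2 were 0.53 and 0.81 for Col3a1, 0.43 and 0.70 for Col1a2, and 0.40 and 0.68 for Col1a1. Neither version was called by edgeR, with adjusted p of 0.341 to 0.372 for the 3 genes without that library.

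Training in knockout muscle gave no called collagen chain. In edgeR's test 0 of 37 members and 0.0% of all tested genes were called, and 2 members had an unadjusted p under 0.05, beside 9.23% of all tested genes. DESeq2 and limma on both log scales also called 0, and voom with sample quality weights called 3. That voom count has no share of all tested genes beside it here, so it cannot be set against a general rate. Without vehicle-trained library 2, 7 members had an edgeR unadjusted p under 0.05, beside 16.5%, and 0 members were called where 0.615% of all tested genes were. The members' median log2 change was -0.24 against -0.02 for all tested genes. With limma on log2(CPM + 1) it was -0.32, and the median of all tested genes moved to -0.13 there. The ranges of CPM without TMM scaling did not overlap in 9 members, all lower after training, where 9.07% of all tested genes separated that way. Not all of these members stay apart after that scaling, as described below. They were Col4a1, Col4a2 and Col4a3 of the basement membrane network, Col5a1 and Col5a2, Col6a1, Col6a2 and Col6a3, and Col18a1. Of 8 fibroblast markers 0 had a log2 change above 0 in this comparison (median -0.29). All 7 tendon cell markers (0.50), all 5 adipocyte markers (1.17) and 3 of 6 macrophage markers had log2 changes above 0, and none of these markers was called. The fibroblast sum ran from 2268 to 4178 CPM before and 1768 to 3347 CPM after training, and the part of these cells in the result was not tested.

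For the collagen VI chains the separation ran as follows. Col6a1 was at 45.99, 65.98 and 65.63 CPM in knockout trained samples, just below the lowest knockout sedentary value of 68.48. These CPM values do not carry the TMM scaling used in edgeR's test. The TMM factors were 1.021, 0.9281 and 0.9076 in the knockout trained samples and 1.003 to 1.07 in the knockout sedentary ones. When each CPM value is divided by its factor, the ranges of Col6a1 and Col18a1 overlap, and those of Col4a3 and Col6a3 overlap by little. The separation of these genes therefore holds only for CPM without that scaling. Col6a2 was at 43.94, 57.11 and 60.99 CPM against a sedentary minimum of 68.69, and Col6a3 at 33.23, 52.06 and 50.38 CPM against 59.73. Their log2 changes were -0.36, -0.54 and -0.54. Col5a2 showed the lowest unadjusted p, with a log2 change of -0.64 (SE 0.266, edgeR unadjusted p = 0.0267, adjusted p = 0.466). For Col4a1 the log2 change was -0.38 (SE 0.186, edgeR adjusted p = 0.577) and for Col4a2 -0.26 (SE 0.133, edgeR adjusted p = 0.587). Collagens I and III overlapped: knockout trained samples were at 45.41, 58.33 and 68.64 CPM for Col1a1, at 103.9, 157.7 and 160.3 CPM for Col1a2, and at 78.48, 137 and 120.1 CPM for Col3a1.

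The interaction asks whether the knockout effect differed between trained and sedentary muscle, and it was not called for any gene. In edgeR's test 0 of 37 members and 0.0% of all tested genes passed, and 4 members had an unadjusted p under 0.05, all negative, beside 7.24% of all tested genes. They were Col4a1 (log2 difference -1.02, SE 0.247, edgeR unadjusted p = 0.000595, adjusted p = 0.634), Col4a2 (-0.66, SE 0.175), Col5a2 (-1.02, SE 0.349) and Col4a6 (-1.09, SE 0.457), with edgeR adjusted p of 0.634 to 0.686. DESeq2, which gave an adjusted p for 10 of the 37 members, called 1 (Col4a1), limma on both log scales 0 and voom with sample quality weights 5. The DESeq2 and voom counts have no share of all tested genes beside them here, so they cannot be set against a general rate. Leaving out vehicle-trained library 2 gave 15 members with an edgeR unadjusted p under 0.05, all negative, beside 10.8%. The edgeR adjusted p was 0.229 for Col4a1 and Col5a2 in that fit. Sedentary and trained knockout effects share no samples, and for Col4a2 they were 0.61 and -0.05 on the log2 scale (0.61 and 0.05 without vehicle-trained library 2). The median over members was -0.37 against -0.03 for all tested genes.

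Ratios between chains of the same collagen were also compared over samples. They are log2 ratios of CPM, not per length, so only their differences between groups are read. Col1a1 to Col1a2 was at -1.52 ± 0.227 in vehicle sedentary, -1.38 ± 0.0464 in knockout sedentary and -1.60 ± 0.188 in vehicle trained samples (SD, n = 5 each), and at -1.28 ± 0.132 (SD, n = 3) in knockout trained samples. Over the 18 samples it spanned -1.83 to -1.13, although Col1a2 itself varied 10.23-fold between libraries and Col1a1 14.22-fold. Col6a1 to Col6a2 spanned -0.15 to 0.31, with vehicle-trained library 2 at the upper end, while those chains varied 6.702-fold and 8.811-fold. Col5a1 to Col5a2 spanned -1.39 to 0.57 with vehicle-trained library 2 at the lower end, while Col5a2 itself varied 3.028-fold. The SD of that log2 ratio was 0.425 over the 18 samples with that library and 0.171 without it. Among members with a count in every library, Col4a2 (2.131-fold), Col5a3 (2.551-fold) and Col4a1 (2.731-fold) varied least.

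The genes that make, trim, bind and break down collagen gave few calls. In knockout against vehicle sedentary muscle, where 2.11% of all tested genes were called, 0 of 19 tested genes for collagen synthesis and secretion were called, with a median log2 change of 0.02. Serpinh1, the collagen-specific chaperone, was at 49.7 ± 12.4 and 61.6 ± 6.56 CPM (SD, n = 5 each; edgeR adjusted p = 0.956). P4ha1 and P4ha2, the prolyl hydroxylase subunits, had log2 changes of 0.02 and -0.17, neither called. Of 13 tested genes for processing and crosslinking, 11 had log2 changes above 0, with a median of 0.35, and 1 was called, Loxl4, a lysyl oxidase-like enzyme, which rose from 0.600 ± 0.188 to 2.07 ± 0.736 CPM (SD, n = 5 each; log2 change 1.72, SE 0.352, edgeR adjusted p = 0.0101). Lox was not called (log2 change 0.43, edgeR adjusted p = 0.989). All 19 collagen-binding matrix genes had log2 changes above 0, with a median of 0.33, and 0 were called. When vehicle-trained library 2 was left out, Hspg2, the basement membrane proteoglycan perlecan, was called (0.33, edgeR adjusted p = 0.0261).

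Of 10 tested collagen-degrading enzymes and inhibitors, 8 had log2 changes above 0, with a median of 0.26, and 0 were called with all samples. Timp3, an inhibitor bound to the matrix, was called higher without vehicle-trained library 2 (log2 change 0.29, edgeR adjusted p = 0.0322). Mmp2, a gelatinase, was at 48.8 ± 13.2 and 66.1 ± 15.7 CPM (SD, n = 5 each; edgeR adjusted p = 0.544), and Timp1 was below 1 CPM in all sedentary samples. Of 10 tested collagen receptors 0 were called with all samples. Ddr1, a collagen-binding receptor kinase, was called lower without library 2 (log2 change -0.48, edgeR adjusted p = 0.0094), while its relative Ddr2 was not (0.25, edgeR adjusted p = 0.639). Of 17 TGF-beta signalling genes, the pathway best known for inducing collagen, 1 was called: Tgfb3, a ligand, rose from 29.9 ± 4.53 to 42.8 ± 2.72 CPM (SD, n = 5 each; log2 change 0.47, SE 0.111, edgeR adjusted p = 0.0287). Tgfb1 had a log2 change of 0.03 and was not called. Without library 2, Smad4, the shared signal transducer, and Smad7, an inhibitor, were called lower (-0.26 and -0.46, edgeR adjusted p = 0.0433 and 0.0213).

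In trained muscle the TGF-beta genes were the list with calls: 3 of 17 fell in knockout against vehicle samples and 0 rose, where 2.87% of all tested genes were called. Tgfbr2, the type II receptor, was at 75.1 ± 22.8 CPM in vehicle trained (SD, n = 5) and 35.4 ± 5.58 CPM in knockout trained samples (SD, n = 3; log2 change -1.05, SE 0.227, edgeR adjusted p = 0.0162). Tgfbr3, a co-receptor, had a log2 change of -0.89 (SE 0.226, edgeR adjusted p = 0.0385), and Smad3, which carries the signal to the nucleus, of -0.66 (SE 0.172, edgeR adjusted p = 0.0456). All 3 stayed called without vehicle-trained library 2, which added Tgfbr1, the type I receptor. The other 5 lists had 0 calls with all samples. Without that library, where 7.5% of all tested genes were called, falls were called in 2 of 19 in synthesis and secretion (Mia3, a procollagen export factor, and P4ha1), 2 of 10 receptors (Itga11 and Ddr2), 1 of 13 in processing (Bmp1, the procollagen C-proteinase) and 3 of 19 matrix genes (Fn1, Nid1 and Ogn). Of these Fn1, fibronectin, had the largest log2 change at -1.16 (SE 0.312, edgeR adjusted p = 0.0278). Neither training comparison nor the interaction had a called gene in any of the 6 lists, with or without that library.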

How the data were processed

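The deposited table holds estimated counts per gene in 20 libraries (RNA by Trizol and a silica column, Illumina kit, per the labels). Its values are not scaled to a common total: column sums differ, and 76.2% of values are whole to within 0.001. Per the submitters' processing notes the tools were Partek, STAR 2.7.8a and DESeq2, and 2 mouse builds are named without saying which was used. Strandedness is not given in the sources used here. No gene sums to under 10.

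Counts were rounded. Library pairs whose squared differences, relative to Poisson expectation, at 1000 to 10000 counts were under 1.5 times those at 10 to 100 counts were summed as 1 sample for tests and averaged for means. This held for 2 of 190 pairs, whose ratio to expectation at high counts was 1.755 and 2.375 against at least 6.381 for the others. Genes with at least 0.5 CPM in at least 5 libraries (15924) were tested with edgeR 4.0.16 (R 4.3.3), quasi-likelihood, TMM scaling, 4 group means, two-sided, Benjamini-Hochberg adjustment over all tested genes within each of 5 contrasts, threshold 0.05. The pipeline was also run on simulated counts, whose outcome is not given here. Those counts held no aberrant library, so that run cannot show how vehicle-trained library 2 affects the tests. SEs were derived from the F statistic. Group ranges were compared in CPM, without the TMM scaling. Alternatives were RLE scaling, DESeq2 1.42.0, limma 3.58.1 on log2(CPM + 1) and log2(CPM + 0.1), voom with sample quality weights, other filters, only the 2 groups compared, 20 separate libraries, a replicate block and leaving out each sample. Sums and ratios without vehicle-trained library 2 were added after seeing the data.

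Values in every library are given for the chains of collagens I, III and VI, for Col4a1, Col4a2, Col5a1 and Col5a2, and for every member called in any contrast with or without vehicle-trained library 2. Other members are given by mean, range or count. List genes are named when called, at most 4 per list and contrast, with 8 defining genes named whatever their values. The members, the 6 gene lists and the marker lists were chosen with earlier results of these data known. GENCODE M21 and RefSeq (GRCm38.p6) were used for lengths, overlaps and promoters and may differ from the build the authors used. Same-numbered libraries of different groups did not deviate together (median correlation 0.0234 over 30 pairs, 11 over 0.1), so no pairing was used.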

Additional observations from a re-analysis of the deposited data

Results flagged for a closer look

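The levels of the 37 members, their sum and 6 chain ratios were screened for a sample far from the rest of its group of 5, in 132 groups. Chance alone gives about 1 in 20, or 6.6, and 10 were found, 4 of them in vehicle-trained library 2. In that library Col24a1 was at 0.3303 CPM against 3.938 to 4.674 in the other 4, and Col22a1, a chain of the muscle-tendon junction, at 2.51 CPM against 7.568 to 8.702. Its log2 ratio of Col5a1 to Col5a2 was -1.392 against 0.2065 to 0.3983, and that of Col6a3 to Col6a1 was -1.069 against -0.3406 to -0.143.

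The other 6 lay in 5 different libraries. In vehicle-trained library 5, Col20a1 was at 2.578 CPM against 0.7911 to 1.107 in the rest of the group, and Col28a1 at 0.8593 CPM against 0.2642 to 0.3692. Vehicle-trained library 4 had Col4a3 at 5.693 CPM against 1.87 to 2.842. Vehicle-sedentary library 1 had Col17a1 at 1.005 CPM against 0.1566 to 0.3326, and vehicle-sedentary library 4 had Col4a4 at 7.215 CPM against 4.191 to 5.012. Knockout-sedentary library 2 had Col5a1 at 43.19 CPM against 27.91 to 31.95.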

How the results depend on the processing

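A chosen set of the log2 changes of named chains, not every change printed above, was followed through the alternatives. In that set 1390 kept their direction and side of the threshold, 38 passed it only under the alternative, 16 lost it and 0 reversed. Outside the set a sign could change. The log2 change of Col4a2 in knockout against vehicle trained muscle was -0.05 with all samples and 0.05 without vehicle-trained library 2. All 16 losses were Col5a3 in sedentary muscle. Of the counts of called members, 130 stayed within 1.5 times and 9 did not. For knockout against vehicle in sedentary muscle (3 with all samples) DESeq2 called 5, voom with quality weights 11, the fit of only the 2 groups 8, and leaving out 1 sample gave 2 to 6, with 6 without vehicle-trained library 2. In trained muscle (0) voom with quality weights called 6 and leaving out 1 sample gave 0 to 1. For training in knockout muscle (0) voom with quality weights called 3, and for the interaction (0) it called 5 and DESeq2 1. These weights were 4.888 for the knockout trained sample merged from libraries 3 and 5. They were 0.3498 and 0.8837 for the other knockout trained samples and 0.0516 for vehicle-trained library 2. The voom calls that involve knockout trained samples therefore lean on 1 sample of that group. Leaving out 1 sample gave 0 in every case for training in vehicle muscle, training in knockout muscle and the interaction. Why the tools differ was not tested. Apart from the fit without vehicle-trained library 2, the shares of all tested genes called in these alternatives are not given here. Their counts of called members are therefore not set against a general rate. With the replicate number as a block (20 libraries separate) 4 members were called in sedentary muscle and 0 in each other contrast, as many as without the block, and the numbers do not pair the samples.

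Limits are the 3 samples of the knockout trained group, 1 aberrant library, low counts in several chains, unknown strandedness, and a targeted gene whose level did not follow the labels.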
